A study of Homo sapiens with 15 samples.

Results

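MDA-MB-231 cells, a human triple-negative breast cancer cell line, were compared after exposure to the conditioned medium (CM) of monocyte-derived macrophages (MDM) and without stimulation. The labels place 7 of the 15 samples of the series in these groups, 3 with CM and 4 unstimulated. The series record gives a time of 24 h, in wording that can mean the exposure of the tumor cells or the priming of the macrophages, and the study's own legend gives a shorter exposure. The MDM came from human donor monocytes and, in the study's methods, had themselves been cultured in the supernatant of MDA-MB-231 or MDA-MB-468 cells. The labels do not say which of these supernatants, or which donor, stands behind a CM sample. By those methods the whole supernatant of the primed MDM was taken, and the medium held human serum, so products of the MDM, products of the cancer cells that primed them and serum components cannot be told apart. What the unstimulated cells received in place of CM is not given in the sources used here. The labels name no engineered allele and no drug in either group.

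Each sample was run on a Tumor Metastasis RT2 Profiler plate, a quantitative PCR array of 96 wells, of which 84 hold target genes, 5 hold housekeeping genes and 7 hold controls. All 84 target wells were described, chosen by their place on the plate and not by their values. The authors deposited each well as a fold change, a linear ratio of 1 CM sample over 1 unstimulated sample, in 3 comparisons. They are called control 2, control 3 and control 4 below, after the unstimulated sample that each used. The unnumbered CM sample and the unnumbered unstimulated sample are named in none of these 3 comparisons, so not all 7 samples entered them. The comparison with control 4 is headed with the same CM number as the comparison with control 3, so whether those comparisons share a CM sample is not settled. Nothing in the labels says that the samples came from separate cultures, so p-values measure only the spread between these comparisons, which may be technical. Every fold change of MDA-MB-231 below is relative to ACTB, the gene of beta-actin, in the same comparison.

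Macrophages in tumors secrete cytokines, growth factors and proteases, and tumor cells exposed to these products are known to switch on genes of migration and matrix degradation. Matrix metalloproteinases (MMPs) are made as inactive precursors, cut collagens and other matrix proteins once activated, and are blocked by the tissue inhibitors of metalloproteinases (TIMPs). Chemokines such as CXCL12 guide cells that carry the matching receptor, and growth factors such as HGF, IGF1 and VEGFA act through receptor tyrosine kinases. In many inducible genes of this kind a TATA box and a site for the AP-1 transcription factors lie close to the start of transcription.

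After CM, 26 of the 84 target genes were raised, with a mean fold change over 2 and an adjusted p under 0.05 (limma, Benjamini-Hochberg over the 84 genes), which is 31.0% of the genes tested. Only 3 genes, 3.57% of those tested, were lowered, with a mean under 0.5. The other 55 were not called. By role, 6 of 7 MMPs were raised, 5 of 8 chemokines, cytokines and their receptors, 4 of 7 growth factors and receptor kinases, 4 of 14 genes of adhesion and matrix, 3 of 6 hormone peptides and their receptors with TRPM1, and both orphan nuclear receptors. None of the 14 genes of transcription, chromatin and cell cycle was raised, and neither was any in a group of 9 metastasis suppressors and other genes, which leaves out the suppressor gene KISS1, counted with the hormone peptides. With the adjusted p alone, 32 genes (38.1%) passed, 29 of them higher and 3 lower after CM.

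The median log2 fold change over all 84 genes was 0.13, and by comparison it was 0.37 with control 2, -0.04 with control 3 and 0.39 with control 4. Among the 26 raised genes the median was 1.64, and among the 55 genes not called it was -0.01. In 20 of the 26 raised genes each of the 3 comparisons passed 2-fold on its own. The comparison with control 4 held the highest value of 19 of the 26 raised genes and of 34 of the 55 not called, so it ran high in both. For 17 raised genes the 95% interval of the mean fold change lay wholly above 2. For 49 of the 55 genes not called, it lay wholly within 2-fold in either direction. The exceptions were TSHR, CDKN2A, CTSL, MYCL, CDH1 and HTATIP2. When the variance of each gene was estimated from its own 3 values alone, without limma's sharing across genes, 8 of the raised genes (among them IL1B, MMP2, IGF1 and MMP9) and none of the lowered genes passed, and 23 raised and 2 lowered genes had an unadjusted p under 0.05.

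**Figure D1:**
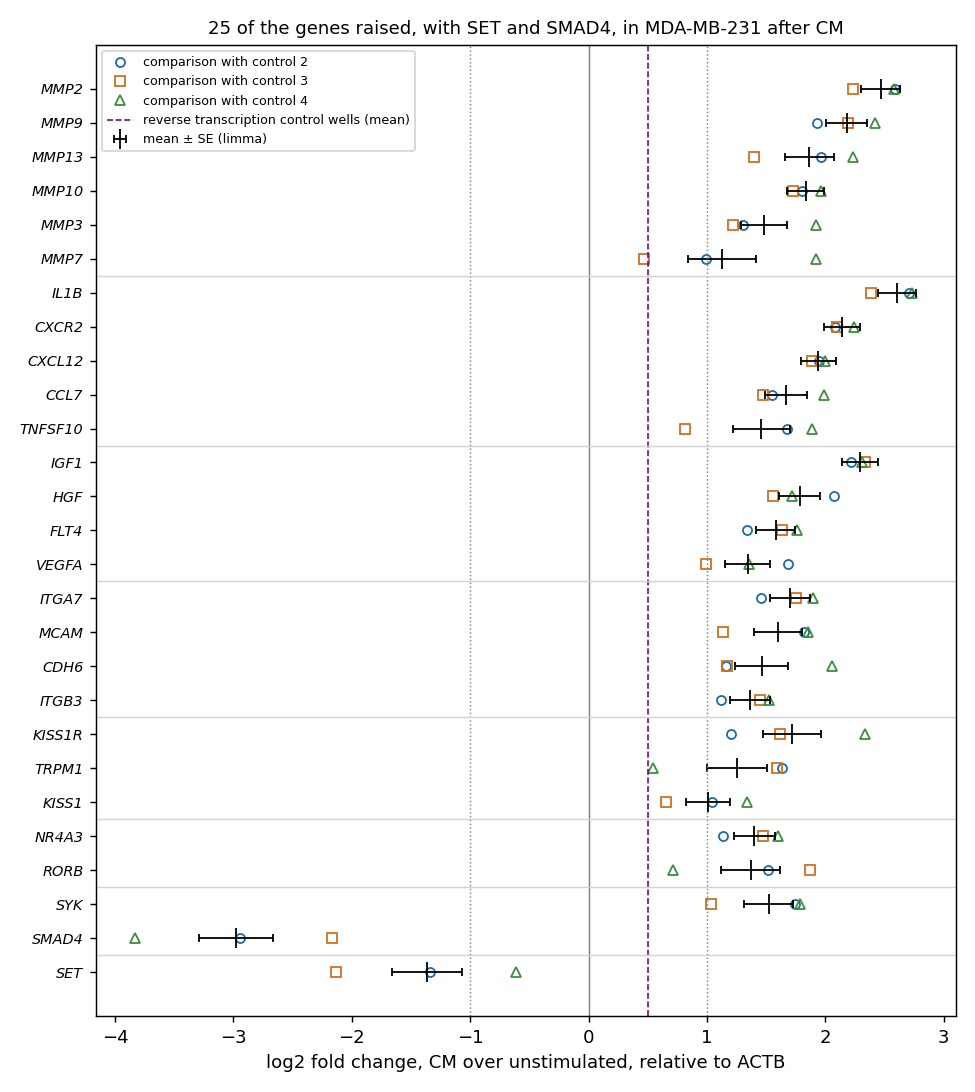
Log2 fold change of CM over unstimulated MDA-MB-231 cells, relative to ACTB, for 25 of the 26 raised genes and for SET and SMAD4, ordered by role. Open symbols are the 3 comparisons, crosses with bars are the mean ± SE from limma, dotted lines mark 2-fold in either direction and the dashed line is the mean of the reverse transcription control wells, 0.50. IL1B, with a mean of 2.61, was highest, and SMAD4, with -2.98, lowest.

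The control wells set the scale for these values. The 3 reverse transcription control wells held 1 identical ratio within each comparison, 1.19-fold with control 2, 1.38-fold with control 3 and 1.72-fold with control 4 relative to ACTB, a mean log2 of 0.50. CDKN2A had that same ratio with controls 2 and 4. Wells set to a common cycle limit would share a ratio in this way, but the cycles were not assigned to samples here, so the abundance behind every fold change is unknown. Of the 26 raised genes, 24 were above the reverse transcription control ratio in all 3 comparisons, RORB and TRPM1 being the exceptions. Relative to these wells in place of ACTB, 16 genes were raised, and CDH6, ITGB3, KISS1, MMP3, MMP7, NR4A3, RORB, TNFSF10, TRPM1 and VEGFA lost their calls. Among the housekeeping genes, the mean log2 fold changes relative to ACTB were -0.19 for B2M, 0.03 for GAPDH, -0.19 for HPRT1 and -0.20 for RPLP0. The 3 positive PCR control wells, which hold a ready template, had means of 0.25, 0.67 and 0.29, and the genomic DNA control well 0.89. The part of these offsets in the results was not tested, beyond the other references named in the closing section.

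**Figure D2:**
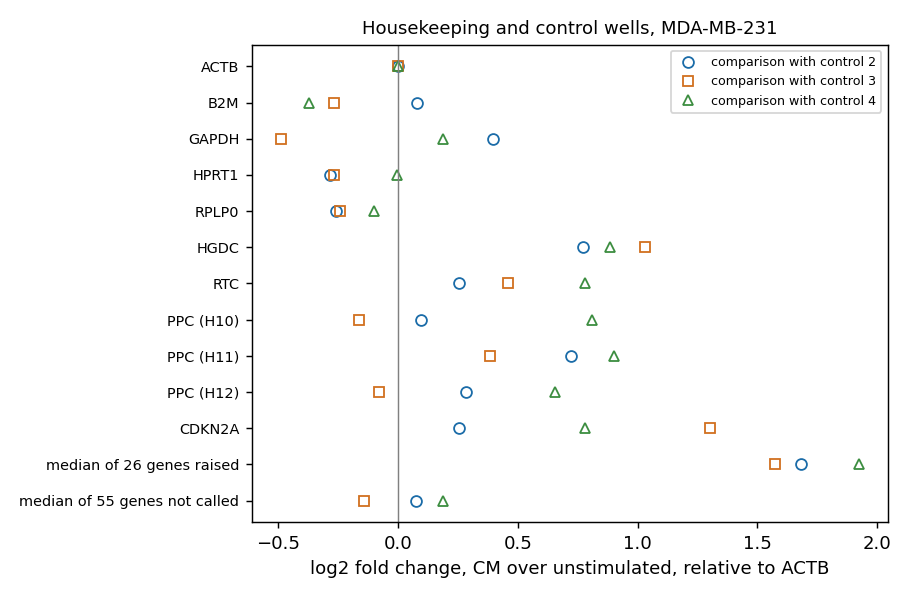
Log2 fold change relative to ACTB of the housekeeping and control wells in the 3 comparisons (open symbols), with CDKN2A and the medians of the raised and the not called genes below. HGDC is the genomic DNA control, RTC the reverse transcription control and PPC the positive PCR control. The reverse transcription control wells had 0.25, 0.46 and 0.78 with controls 2, 3 and 4, and the genomic DNA control well lay between 0.77 and 1.03.

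Among the MMPs the gelatinases changed most. MMP2 (gelatinase A) had fold changes of 6.01, 4.71 and 5.99 with controls 2, 3 and 4, a mean of 5.53 (95% interval 4.19 to 7.31, adjusted p = 0.000148, limma). MMP9 (gelatinase B) had 3.81, 4.56 and 5.34, a mean of 4.53 (3.39 to 6.04, adjusted p = 0.000191). All comparisons of both genes lay above 3-fold, and their intervals overlap. The genes lie apart, MMP2 at chr16:55478830-55506691 and MMP9 at chr20:46008908-46016561 in GRCh38.p14.

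The other raised MMPs form a cluster on chromosome 11. MMP7 (chr11:102520508-102530747), MMP10 (chr11:102770502-102780628), MMP3 (chr11:102835801-102843609) and MMP13 (chr11:102942995-102955732) lie within 435.2 kb, and these 4 are the only target genes of the array in that span. MMP13, a collagenase, had fold changes of 3.89, 2.64 and 4.70 (mean 3.64, adjusted p = 0.000593). The stromelysins cut a broad range of matrix proteins. MMP10 (stromelysin 2) had 3.49, 3.32 and 3.90 (mean 3.56, adjusted p = 0.000224), and MMP3 (stromelysin 1) had 2.47, 2.33 and 3.80 (mean 2.79, adjusted p = 0.00131). MMP10 was among the most even of the raised genes and MMP3 stood higher with control 4 than with the others. MMP7 (matrilysin) was uneven, with 1.99, 1.39 and 3.79 (mean 2.18, adjusted p = 0.0213), and passed 2-fold with control 4 only. Without that comparison, or relative to the median of the 84 wells, it was no longer called. MMP11 (chr22:23772849-23784316), also named stromelysin 3, had 1.26, 0.676 and 1.30, a mean of 1.03 (0.698 to 1.53), and was not called.

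The promoters of MMP10 and MMP7 carry the same arrangement, which is also found in CCL7, a raised chemokine. The 250 bases before the start of each gene are shown 5′ to 3′ on the gene's strand, from RefSeq (GRCh38.p14), with MMP11 for contrast. Capitals mark matches to the AP-1 motif TGANTCA and to the TATA motif TATAAA. MMP10 is read from chr11:102780629-102780878 on the minus strand, MMP7 from chr11:102530748-102530997 on the minus strand, CCL7 from chr17:34269971-34270220 on the plus strand and MMP11 from chr22:23772599-23772848 on the plus strand.
MMP10: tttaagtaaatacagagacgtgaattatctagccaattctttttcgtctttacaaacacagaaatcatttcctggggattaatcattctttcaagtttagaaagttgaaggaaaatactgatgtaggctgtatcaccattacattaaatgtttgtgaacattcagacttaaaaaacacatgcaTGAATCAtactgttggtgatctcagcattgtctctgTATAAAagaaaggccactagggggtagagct
MMP7: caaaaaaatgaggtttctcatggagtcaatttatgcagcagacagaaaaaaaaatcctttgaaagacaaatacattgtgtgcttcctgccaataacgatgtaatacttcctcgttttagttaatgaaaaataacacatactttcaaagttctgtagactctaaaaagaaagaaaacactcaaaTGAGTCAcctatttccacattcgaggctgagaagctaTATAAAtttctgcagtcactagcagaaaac
CCL7: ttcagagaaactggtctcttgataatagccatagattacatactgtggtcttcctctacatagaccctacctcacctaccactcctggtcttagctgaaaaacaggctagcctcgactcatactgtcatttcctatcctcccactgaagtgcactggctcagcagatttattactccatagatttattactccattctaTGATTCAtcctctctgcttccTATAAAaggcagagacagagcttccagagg
MMP11: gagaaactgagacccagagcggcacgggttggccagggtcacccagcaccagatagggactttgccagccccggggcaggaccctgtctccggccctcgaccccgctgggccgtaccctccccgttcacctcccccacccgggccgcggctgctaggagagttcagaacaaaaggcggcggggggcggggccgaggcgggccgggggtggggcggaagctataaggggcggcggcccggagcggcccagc

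In MMP10 the AP-1 match spans positions -67 to -61 from the start and the TATA match -31 to -26. In MMP7 they lie at -67 to -61 and -30 to -25, and in CCL7 at -51 to -45 and -30 to -25. MMP11 held neither in this window. Of the 84 target genes 58 had a promoter in the table, 15 of them raised, and MMP2, MMP9, MMP3 and MMP13 were not among them and were not searched. The AP-1 motif, searched on both strands, was present in 3 of 15 raised genes, in 4 of 43 genes that were not raised and in 6.57% of the 35116 promoters of the table. The TATA motif, also searched on both strands, was present in 5 of 15, the others being KISS1 and TNFSF10, in 2 of 43 and in 10.7% of all promoters. The GC box GGGCGG, on both strands, was in 4 of 15 raised genes, in 31 of 43 genes that were not raised and in 42.6% of all promoters. Of the 4 other motifs searched on both strands, the CRE motif TGACGTCA was in 1 of 15 and 2 of 43 genes and in 1.65% of all promoters, and the ETS motif AGGAAG in 4 of 15, 15 of 43 and 28.7%. The NF-kB motif and the hypoxia motif TACGTG were in none of the 58 promoters, against 1.73% and 2.76% of all. These counts describe letters in a window and were not tested.

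**Figure D3:**
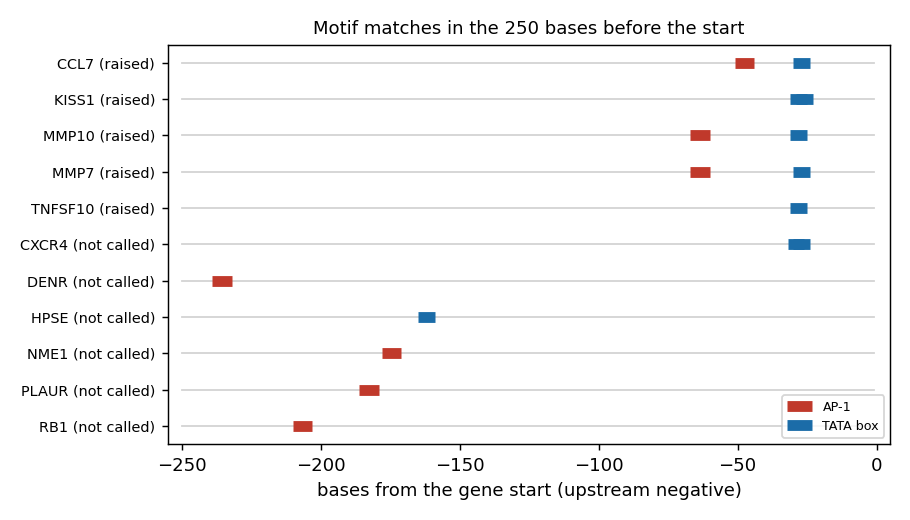
Positions of motif matches in the 250 bases before the start of target genes that hold an AP-1 or TATA match, in bases from the start of the gene. Raised genes and genes that were not raised are marked, and MMP10, MMP7 and CCL7 hold both motifs close to the start.

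The 3 TIMPs of the array had smaller mean changes than the raised MMPs, and TIMP1 has no target well. TIMP2 had fold changes of 0.747, 0.834 and 0.903, TIMP3 had 0.969, 0.914 and 0.871 and TIMP4 had 1.73, 1.53 and 1.12. None of the 3 was called, with adjusted p of 0.254, 0.659 and 0.0769. For TIMP4 the adjusted p depended on the reference (limma). It was 0.00448 relative to HPRT1, 0.0385 to RPLP0 and 0.0254 to B2M, but 0.229 to GAPDH, with a mean under 2-fold each time. The mean log2 fold change of MMP2 and MMP9 exceeded that of the 3 TIMPs by 2.15, 2.14 and 2.56 in the 3 comparisons. Such a difference within a comparison does not depend on the reference gene. This set of genes, like the other pairs whose difference is given below, was chosen after the values were seen.

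Of the 9 other proteases, heparanase and protease inhibitors, 8 were not called, against 55 of all 84 target genes. PLAUR, the receptor of urokinase-type plasminogen activator, had 1.42, 0.889 and 1.03 (mean 1.09, adjusted p = 0.678), with values on both sides of 1. CTSL, the lysosomal protease cathepsin L, passed the test but not the fold limit, with 1.57, 1.25 and 1.92 (mean 1.56, adjusted p = 0.0335). CTSK, the collagen-degrading cathepsin K of osteoclasts, had a mean of 1.34 (adjusted p = 0.0927).

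IL1B, an inflammatory cytokine, had the highest mean of the 84 genes. Its fold changes were 6.53, 5.21 and 6.63, a mean of 6.09 (SE 0.16 on the log2 scale, 4.62 to 8.03, adjusted p = 0.000148). IL18, a cytokine of the same family, had 0.591, 0.834 and 1.08 (mean 0.811, adjusted p = 0.353) and was not called. The log2 fold change of IL1B exceeded that of IL18 by 3.47, 2.64 and 2.61.

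CXCL12 and CXCR2 were the most even of the chemokine genes. CXCL12 had 3.85, 3.70 and 3.98 (mean 3.84, adjusted p = 0.000191), with the smallest SD between comparisons of the raised genes, 0.0532 on the log2 scale. CXCR2, a receptor of neutrophil-attracting chemokines, had 4.24, 4.27 and 4.74 (mean 4.41, adjusted p = 0.000167). CXCR4, the receptor of CXCL12, had 0.955, 1.32 and 1.50 (mean 1.24, 0.901 to 1.70, adjusted p = 0.297) and was not called. The log2 fold change of CXCL12 exceeded that of CXCR4 by 2.01, 1.49 and 1.41. CCL7, a chemokine that attracts monocytes, had 2.93, 2.78 and 3.96 (mean 3.18, adjusted p = 0.000499). TNFSF10, the death ligand TRAIL, had 3.19, 1.76 and 3.70 (mean 2.75, adjusted p = 0.00318) and fell short of 2-fold with control 3. TGFB1 had a mean of 1.09 and was not called.

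Growth factors were raised along with 1 receptor. IGF1 had 4.65, 5.06 and 4.97 (mean 4.89, 3.79 to 6.32, adjusted p = 0.000148), and HGF, a factor that scatters epithelial cells, had 4.21, 2.94 and 3.29 (mean 3.44, adjusted p = 0.000432). Both were over 2-fold in each comparison. VEGFA, which drives the growth of blood vessels, had 3.22, 1.99 and 2.56 (mean 2.54, adjusted p = 0.00155), and FLT4, the receptor of the lymphatic factors VEGFC and VEGFD, had 2.54, 3.11 and 3.40 (mean 2.99, adjusted p = 0.000499). VEGFA was just under 2-fold with control 3. The receptors FGFR4 and EPHB2 were not called, with means of 1.10 and 0.918.

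Of the 14 genes of adhesion and matrix, 4 were raised, 28.6% against 31.0% of all 84 target genes. ITGA7, an integrin chain that binds laminin, had 2.74, 3.37 and 3.72 (mean 3.25, adjusted p = 0.000432), and ITGB3, the beta chain of the vitronectin receptor, had 2.17, 2.72 and 2.88 (mean 2.57, adjusted p = 0.000898). MCAM, an adhesion molecule of melanoma and endothelial cells, had 3.53, 2.19 and 3.62 (mean 3.04, adjusted p = 0.00104). These 3 genes and CDH6 were over 2-fold in each comparison. CDH6, a cadherin, had 2.24, 2.25 and 4.15 (mean 2.75, adjusted p = 0.00237), nearly the same with controls 2 and 3 and higher with control 4. CDH1, E-cadherin, had 1.38, 1.08 and 2.30 (mean 1.51, adjusted p = 0.112) and CDH11 a mean of 1.31 (adjusted p = 0.136), neither of them called. The matrix gene FN1 (fibronectin), with a mean of 0.897, and the hyaluronan receptor CD44, with 1.03, were not called either.

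KISS1R, the kisspeptin receptor, had 2.31, 3.06 and 5.05 (mean 3.29, adjusted p = 0.00155), over 2-fold in each comparison and highest with control 4. Its ligand gene KISS1, a metastasis suppressor, had 2.06, 1.57 and 2.53 (mean 2.01, 1.46 to 2.77, adjusted p = 0.00537), the mean nearest to the limit. KISS1 lost its call without the comparison with control 2 and without that with control 4, and also relative to GAPDH or to the median of the 84 wells. TSHR, the thyrotropin receptor, was just outside the limit, with 1.88, 1.93 and 1.65 (mean 1.81, adjusted p = 0.00469), and it was called raised relative to HPRT1, RPLP0 or B2M. TRPM1, a cation channel of melanocytes and retina, had 3.10, 3.02 and 1.46 (mean 2.39, adjusted p = 0.00762), and with control 4 it lay below the ratio of the reverse transcription control wells.

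Both orphan nuclear receptors of the array were raised. NR4A3, an early-response gene, had 2.19, 2.77 and 3.03 (mean 2.64, adjusted p = 0.000898), and RORB had 2.86, 3.66 and 1.64 (mean 2.58, adjusted p = 0.00469). RORB was lowest with control 4, where most raised genes were highest, and there it lay below the reverse transcription control ratio. RORB and TRPM1 lost their calls when the comparison with control 3 was left out.

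In intracellular signalling SYK and SMAD4 changed in opposite directions. SYK, a tyrosine kinase best known from blood cells, had 3.34, 2.05 and 3.44 (mean 2.87, 2.03 to 4.06, adjusted p = 0.00132). The tyrosine kinase gene SRC had 1.05, 1.03 and 1.07 (mean 1.05, 0.815 to 1.35), nearly equal in the 3 comparisons, and was not called. SMAD4, the common partner of the SMADs that carry TGF-beta signals, was lowered, with 0.130, 0.222 and 0.0703 (mean 0.127, 0.0744 to 0.216, adjusted p = 0.000499), and was the only gene under 0.5 in each comparison. SMAD2, which binds SMAD4 when activated, had 1.04, 0.911 and 1.01 (mean 0.988), and the log2 fold change of SMAD4 minus that of SMAD2 was -3.00, -2.03 and -3.85.

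The MDA-MB-468 line, the other line of the series, is known to have lost SMAD4 and RB1, and MDA-MB-231 is known to lack CDKN2A. RB1 had 0.910, 0.714 and 0.917 in the same MDA-MB-231 comparisons (mean 0.841, adjusted p = 0.329) and was not called. CDKN2A had 1.19, 2.47 and 1.72, at the reverse transcription control ratio with controls 2 and 4, a mean of 1.72 (adjusted p = 0.0383) that passed the test but not the fold limit, and was called raised without control 2. In the ratios of MDA-MB-468 with CM, whose headers name an MDA-MB-231 control, SMAD4 had 0.227, 0.309 and 0.0722 and RB1 0.0859, 0.0744 and 0.0474. Whether RNA of another line contributed to the SMAD4 values was not tested.

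SET, a histone-binding inhibitor of protein phosphatase, was lowered with 0.396, 0.228 and 0.652 (mean 0.389, 0.236 to 0.640, adjusted p = 0.0102). Its value with control 4 was above 0.5, and without the comparison with control 3 it was no longer called (adjusted p = 0.0721, limma). The genes nearest to the lower limit on its outer side were HTATIP2, a metastasis suppressor, with 0.450, 0.901 and 0.832 (mean 0.696), FXYD5, a regulator of the sodium pump and of cell adhesion, with 0.609, 0.736 and 0.917 (mean 0.743), and EWSR1, an RNA-binding protein gene, with 0.599, 0.879 and 0.903 (mean 0.780). In each of these 3 genes the lowest value was that with control 2. MYCL, a MYC-family transcription factor gene, had 1.96, 0.847 and 2.22 (mean 1.55, adjusted p = 0.162), with comparisons on both sides of 1, and was called raised only without control 3. TCF20, a transcription cofactor gene, was the most even of all 84 genes, with a mean of 0.938 and an SD of 0.0190 on the log2 scale.

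**Figure D4:**
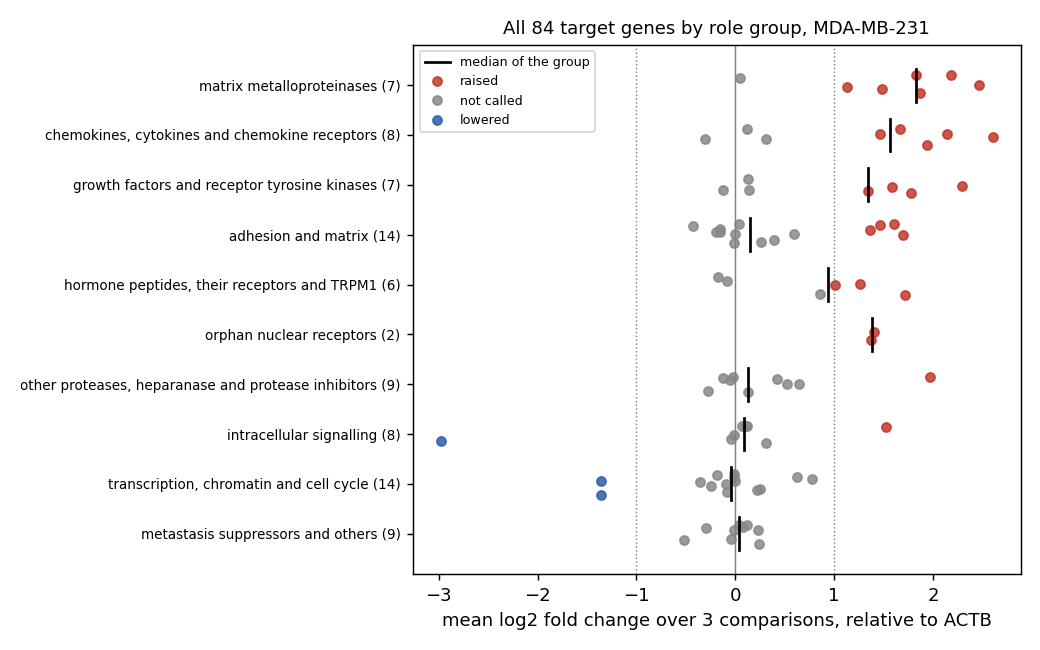
Mean log2 fold change relative to ACTB over the 3 comparisons for each of the 84 target genes, in 10 role groups with their numbers of genes in parentheses. Black bars are group medians, which were 1.83 for the MMPs and -0.05 for genes of transcription, chromatin and cell cycle.

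Several raised genes are also known as transcripts of macrophages, the source of the CM. In a list of 14 target genes known to be expressed by macrophages, IL1B, CCL7, SYK and MMP9 were raised, 28.6% against 31.0% of all genes. The median log2 fold change of the 14 was 0.22 against 0.13. The other 10 had means from 0.811 to 1.56-fold, with a median log2 of 0.08. This list is not complete, and the share raised depends on the choice of genes. It leaves out the raised genes HGF and TNFSF10, which the study also measured in monocytes. The macrophage-defining genes CD14, CD68, CSF1R and PTPRC have no well on the array. The part of MDM RNA in these results was not tested.

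MDA-MB-468 cells with CM were run on the same array, but the headers of those ratios name an MDA-MB-231 control. The identity of their unstimulated samples is therefore not settled, and a difference in response to CM and a difference between the lines at baseline cannot be told apart. As in MDA-MB-231, the comparisons with controls 3 and 4 are headed with the same CM number, so whether they share a CM sample is not settled. Fold changes of MDA-MB-468 are relative to RPLP0, and those of MDA-MB-231 to ACTB as before. The MDA-MB-468 comparison with control 4 stood apart, with a median log2 of -0.92 over the 84 genes against 0.17 and 0.35 with controls 2 and 3, and held the lowest value in 76 of the 84 genes. The median SD between comparisons was 0.70 in that line with this comparison and 0.18 without it, and 0.34 in MDA-MB-231. The difference between the log2 fold changes of the lines, each on its own reference, passed an adjusted p of 0.05 in 10 of 84 genes (limma, Benjamini-Hochberg), 4 of them higher and 6 lower in MDA-MB-231. It passed in 18 genes without that control 4 comparison and in 6 without replicate 3 of MDA-MB-231. In the main fit limma shared the variance fully across the 84 genes, so every gene had the same SE, 0.49. The p-values therefore do not reflect the spread of a single gene, and no fit without this sharing was run between the lines. Most genes were lowest together with control 4 of MDA-MB-468, so their spreads were not independent. SYK had 0.607, 0.718 and 0.372 in MDA-MB-468, and the difference was 2.40 (SE 0.49, adjusted p = 7.32e-05, limma). CXCR2 had 1.47, 1.65 and 0.525 in MDA-MB-468 (difference 2.03, adjusted p = 0.000811), and MMP10 had 1.24, 1.34 and 0.597 (difference 1.84, adjusted p = 0.00314). In MDA-MB-468 the values of CXCR2 and MMP10 fell below 1 with control 4 only, and those of SYK were below 1 in each comparison. Without control 4 of MDA-MB-468 the differences were 2.12 for SYK, 1.50 for CXCR2 and 1.47 for MMP10. IGF1 went the other way, with 20.9, 34.8 and 13.0 in MDA-MB-468 (difference -2.11, adjusted p = 0.000529), as did KISS1, with 10.1, 8.24 and 7.75 (difference -2.10, adjusted p = 0.000529). HGF, with 21.4, 18.2 and 3.71, had a difference of -1.72 (adjusted p = 0.00577) that was lost without replicate 2 or 3 of MDA-MB-468 or replicate 3 of MDA-MB-231. For MMP2, MMP9 and IL1B the differences were 0.36, 0.05 and 1.08, with the same SE of 0.49, and did not pass the threshold, although IL1B did without control 4 of MDA-MB-468 (1.16, adjusted p = 0.0324, limma).

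**Figure D5:**
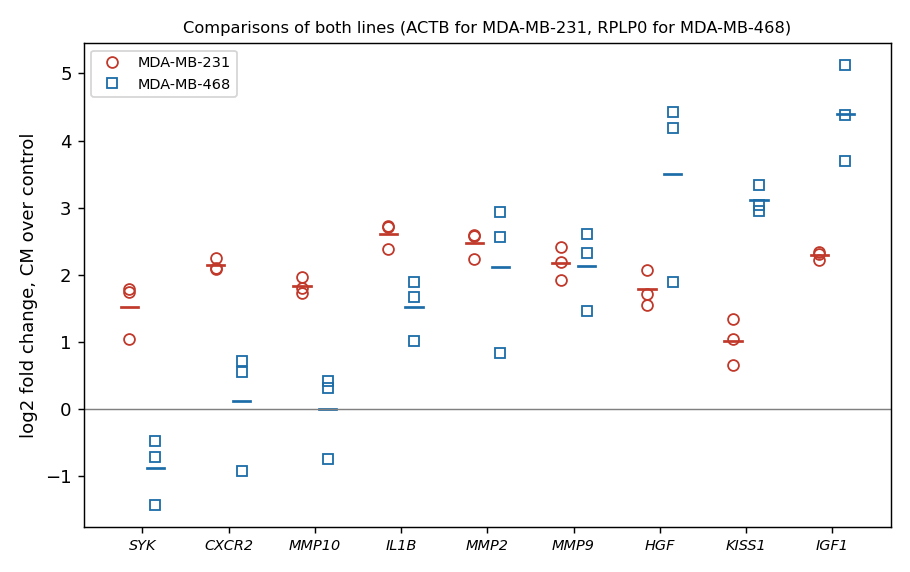
Log2 fold change of CM over control for 9 genes, in MDA-MB-231 (circles, relative to ACTB) beside MDA-MB-468 (squares, relative to RPLP0). Each point is 1 comparison and short lines are means over the 3 comparisons. SYK, CXCR2 and MMP10 lay higher in MDA-MB-231, and IGF1, KISS1 and HGF higher in MDA-MB-468.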

How the data were processed

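Per the labels and the study's methods, RNA was extracted, treated with DNase, reverse transcribed and run on the array with SYBR Green, and GeneGlobe was used for analysis. The authors deposited linear ratios (2 to the power of the negative ΔΔCt), scaled to the 5 housekeeping genes, whose geometric mean came out at 1 per column. Their unnumbered column, which equalled the geometric mean over the 3 comparisons within rounding, was not taken as a replicate. Symbols were paired with wells through the study's array layout. The cycle tables (16 per-sample columns) are not used here, as their names match no label, so depth is unknown, the number of comparisons limits the precision, and the planned fit on cycles was replaced by a fit on the ratios.

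Each ratio was divided by that of ACTB, and the log2 values were tested against 0, 2-sided, with limma 3.58.1 (R 4.3.3), with Benjamini-Hochberg adjustment over 84 genes. Figures were drawn with matplotlib 3.10.9 in Python 3.11.15. Named genes had a mean over 2 or under 0.5, were among the 3 nearest to either limit on each side, had the 2 largest changes in a role group with fewer than 3 such genes, or served as controls, and others were picked with their values in view. The members, role groups and macrophage list were chosen with earlier results of these data known. Certain target genes are left unnamed, but are part of every count and median. Alternatives were 8 other references, each comparison left out, averaging of the comparisons headed with 1 CM number, a fit without moderation and other call rules.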

Additional observations from a re-analysis of the deposited data

Results flagged for a closer look

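The fold changes of CM over control, relative to ACTB in MDA-MB-231 but to RPLP0 in MDA-MB-468, differed between the lines by a test of the difference itself for genes named above (limma, Benjamini-Hochberg over 84 genes). That fit shared the variance fully across genes, so its p-values do not reflect the spread of a single gene. As log2 fold change in MDA-MB-231 minus that in MDA-MB-468, the difference was 2.40 for SYK, 2.03 for CXCR2, 1.84 for MMP10, -2.11 for IGF1, -2.10 for KISS1 and -1.72 for HGF. With ACTB in both lines it was 2.17, 1.81, 1.61, -2.33, -2.32 and -1.94. RB1 had the largest difference, 3.65 (adjusted p = 8.71e-11), with fold changes of 0.910, 0.714 and 0.917 in MDA-MB-231 and 0.0859, 0.0744 and 0.0474 in MDA-MB-468, a line known to lack RB1. The columns of MDA-MB-468 are headed with an MDA-MB-231 control, so these values cannot tell a difference in response to CM from a difference between the lines at baseline.

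The genomic DNA control well, which is outside the gene measurements, lay above the reverse transcription control wells by 0.52, 0.57 and 0.10 on the log2 scale in the 3 comparisons of MDA-MB-231, a mean of 0.40. Its part in the fold changes of the target genes was not tested.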

How the results depend on the processing

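The count of raised genes stayed between 24 and 27 with every other reference except the reverse transcription control wells, which left 16, and 16 genes were raised under all 8 other references. Leaving out each comparison gave 24 to 26 raised and 2 to 3 lowered genes, averaging the comparisons headed with 1 CM number gave 26 and 3, and without moderation of the variances 8 raised and 0 lowered genes passed (23 and 2 at an unadjusted p under 0.05, by the same fit). A fold change past the limit in each comparison held for 20 raised genes and 1 lowered gene, SMAD4. Over the 84 genes the median log2 fold change, 0.13, turned to -0.365 relative to the reverse transcription control wells and to -0.107 relative to the per-comparison median, where it is near 0 by construction. Over 37 genes, 48 recomputed values lost the call and 7 gained it. Of the called genes 0 changed direction, which the call rule fixed in advance. Their means were over 1 in size, their comparisons lay on 1 side of 0 and the reference offsets were smaller. Of the 8 others CXCR4 turned to -0.19 and SRC to -0.43 relative to the reverse transcription control wells, and SRC to -0.17 relative to the median. The line difference passed in 10 genes, in 11 with ACTB for both lines, and in 6 (without replicate 3 of MDA-MB-231) to 18 (without replicate 4 of MDA-MB-468) with a comparison left out. The line difference of MMP2 ran from -0.28 to 0.77 with a comparison left out, and that of MMP9 from -0.29 to 0.29, and MMP9 turned to -0.17 with ACTB and -0.047 with 4 housekeeping genes in both lines. With the control number as a replicate block the difference passed in 8 genes, and same-numbered comparisons of the lines did not deviate together (correlations -0.30, -0.06 and -0.23). Within MDA-MB-231 the ratios are taken within pairs that the authors formed, so the fit against 0 is itself paired and no unpaired fit was run. The fits on threshold cycles, with and without a block, were not run.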
